A study of Mus musculus with 9 samples.

Results

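The 9 genes described here encode enzymes that limit lipid peroxidation, or the iron behind it, by routes other than the lipid peroxidase Gpx4: Gch1, Pts, Spr, Qdpr, Aifm2, Vkorc1l1, Coq2, Dhodh and Nfs1. They were chosen by name from knowledge of ferroptosis, an iron-dependent cell death, with earlier results of these data known. They make up 9 of 52306 named genes in the table and 9 of the 10453 tested. RNA-seq had been made from 4T1 cells, a mouse mammary carcinoma line, at day 2. The 9 libraries form 3 groups of 3: cells given MK1775, the Wee1 kinase inhibitor also known as adavosertib, cells labelled as given Wee1 siRNA, and negative controls (NC). All were of the same cancer line in DMEM with 10% serum, and the labels tie all 3 groups to a protocol named cell proliferation inhibition. The MK1775 dose, the siRNA sequences, what NC cells received and whether the siRNA numbers mark replicates or different siRNAs are details not given in these sources. NC serves both comparisons, so vehicle, transfection and treatment cannot be told apart.

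Tetrahydrobiopterin, the reduced pterin cofactor called BH4, is made from GTP and traps lipid radicals. Reduced coenzyme Q does the same in membranes: Aifm2 reduces it at the plasma membrane and Dhodh in the inner mitochondrial membrane, and reduced vitamin K can take its place. Nfs1 acts earlier, since it supplies sulfur for iron-sulfur clusters and a shortage of clusters raises the uptake of iron. In carcinoma lines these routes are known for sparing cells that have lost Gpx4 activity.

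Values are FPKM, fragments mapped to a transcript per kilobase of its length and relative to library size, summed over the transcripts that carry a gene's name. Where a pair of log2 differences is given, MK1775 minus NC comes before the siRNA label minus NC. Differences were tested with limma on log2(FPKM + 1), a scale that understates the change of low genes, and a gene was called at a Benjamini-Hochberg adjusted p under 0.05 over the 10453 genes that averaged 1 FPKM or more. Totals per library ran from 321551 to 332950 FPKM, and FPKM carry no read depth, so no counting interval can be given. Nothing in the labels says whether the replicates were separate cultures, and p-values reflect the spread between libraries alone, which may be technical. With 3 libraries against 3, an exact permutation test cannot go below p = 0.1. Wee1 itself had 14.95, 14.7 and 16.8 FPKM with MK1775, 13.1, 15.1 and 15.3 FPKM in the libraries labelled Wee1 siRNA, and 11.5, 10.5 and 11 FPKM in NC. The targeted transcript was thus higher, not lower, under the siRNA label (log2 difference 0.37, limma adjusted p = 0.00633), and every direction given for that group rests on its label. Of 7 epithelial markers, 3 were tested (Krt8, Krt18 and Cdh1), and all 3 were called higher in both treated groups. Their part in the differences given below was not tested. The summed level of the 7 was 761 to 780 FPKM with MK1775, 703 to 713 FPKM under the siRNA label and 409 to 475 FPKM in NC. Krt8 and Krt18 made up most of it. Of those not tested, Epcam averaged 0.435 FPKM with MK1775, 0.421 FPKM under the siRNA label and 0.0573 FPKM in NC. Krt14 and Cldn4 also averaged more in both treated groups than in NC. Cldn7 went the other way, with 0.0142 FPKM with MK1775, 0.037 FPKM under the siRNA label and 0.084 FPKM in NC. None of 7 immune markers reached the tested range: 4 were at 0 in every library, and the list summed to 0.276 to 0.756 FPKM with MK1775, 0.632 to 1.10 FPKM under the siRNA label and 0 to 0.0263 FPKM in NC. Stromal and endothelial markers summed to 1.41 to 1.52 FPKM with MK1775, 1.27 to 1.54 FPKM under the siRNA label and 1.89 to 2.03 FPKM in NC, with 1 of 7 at 0 throughout. The members of that list went different ways. Pdgfrb and Cdh5 averaged less in both treated groups than in NC. Col1a1, Pecam1 and Dcn averaged more in both, and Col1a2 only with MK1775. In such bulk RNA, fewer cells of a type and less RNA per cell cannot be told apart.

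With MK1775, 5 of the 9 genes were called against NC, beside 41% of all genes tested. Gch1 rose, as did 17.9% of all genes, and Spr, Qdpr, Vkorc1l1 and Nfs1 fell, as did 23.1%. Under the siRNA label 5 of the 9 were called as well, beside 42.8% of all genes. Gch1 rose there, as did 19.6% of all genes, and Spr, Qdpr, Vkorc1l1 and Nfs1 fell, as did 23.2%. The 2 comparisons share the NC libraries. Libraries of the 2 groups did not overlap for 5 of the 9 with MK1775, against 54% of all genes, and for 6 of the 9 under the siRNA label, against 52.2%. The share of the 9 called was 55.6% in each comparison, and nothing particular to the 9 is read from it. The median log2 difference of the 9 was -0.22 with MK1775 and -0.24 under the siRNA label, where all genes had medians of -0.04 and -0.01. Gpx4 averaged 147 ± 6.66 FPKM with MK1775, 153 ± 6.78 FPKM under the siRNA label and 145 ± 9.37 FPKM in NC (SD, n = 3 each), and was not called in either comparison (limma adjusted p = 0.784 and 0.341). Under quantile normalization it was called higher under the siRNA label (0.15, adjusted p = 0.0295).

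**Figure D1:**
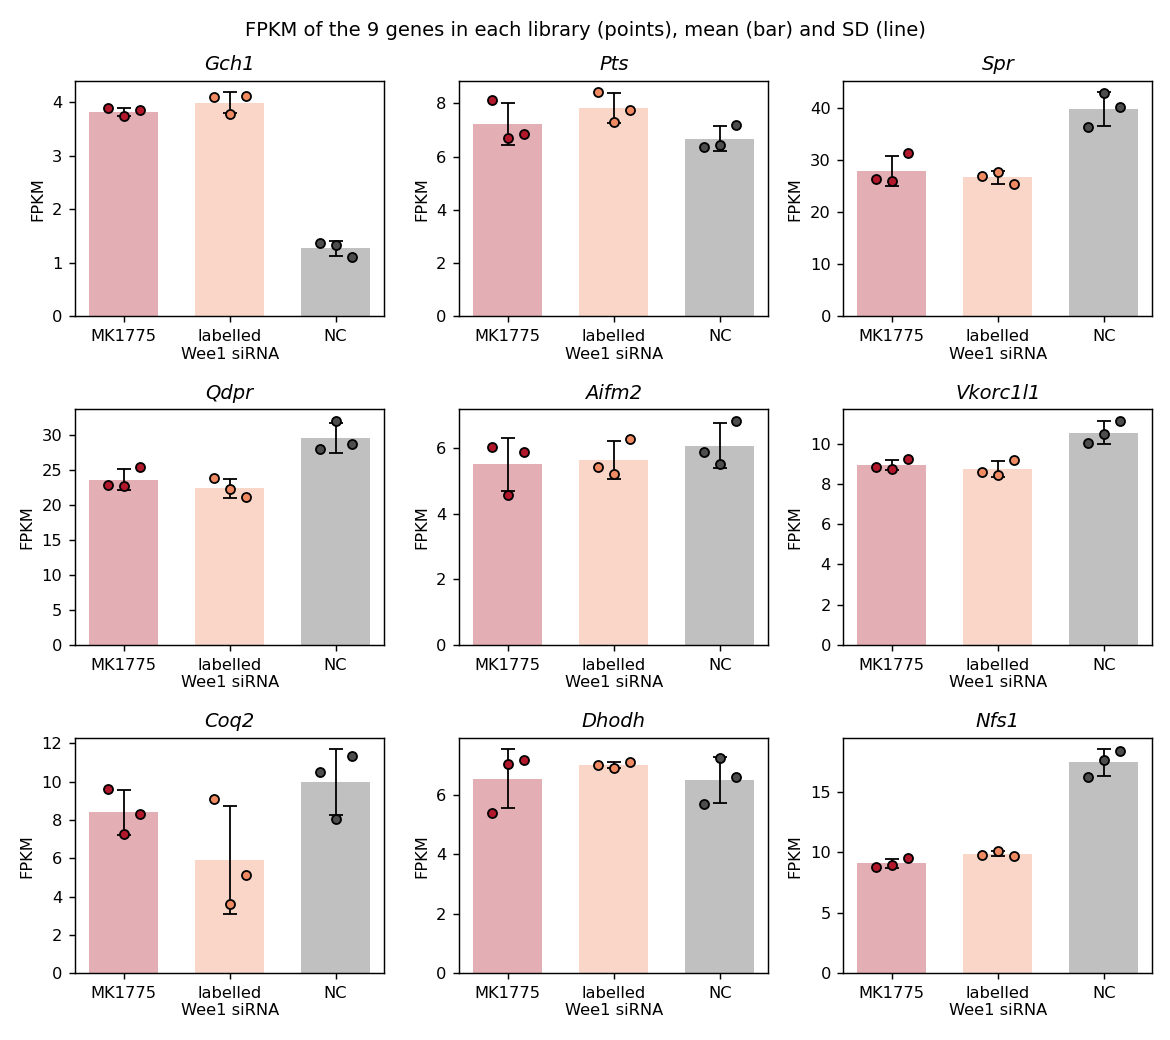
FPKM of the 9 genes in each library (points), with group means (bars) and SD (lines, n = 3), from MK1775 on the left to NC on the right in every panel. Gch1 was at 3.74 FPKM or more in the 6 treated libraries and at most 1.37 FPKM in NC, while Nfs1 was at most 10.1 FPKM in treated libraries and at least 16.2 FPKM in NC.

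Gch1 encodes GTP cyclohydrolase 1, the rate-limiting first enzyme of BH4 synthesis, and lies at chr14:47391352-47426870 on the minus strand (coordinates here and below as in the deposited table, GRCm39 per the submitters' processing notes). It was at 3.89, 3.74 and 3.85 FPKM with MK1775, at 4.09, 3.77 and 4.11 FPKM in the libraries labelled Wee1 siRNA, and at 1.37, 1.33 and 1.11 FPKM in NC. All 6 treated libraries stood above all 3 controls. The difference in means was 3.01-fold with MK1775 (log2 difference 1.09, SE 0.073, limma adjusted p = 2.06e-05) and 3.14-fold under the siRNA label (1.14, SE 0.073, adjusted p = 1.68e-05). A call for a rise of at least 1 on this log2 scale was made for 3.07% of all genes with MK1775 and 3.60% under the siRNA label. In NC, Gch1 was the lowest of the 9, at the 7.62th percentile of tested genes. Its single coding transcript carried 98.7% of its FPKM, and both treated groups lay above NC in it too.

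Pts, Spr and Qdpr act after Gch1. Pts, 6-pyruvoyltetrahydropterin synthase, takes the second step (chr9:50432917-50440024, minus strand) and had 8.13, 6.72 and 6.84 FPKM with MK1775, 8.42, 7.31 and 7.74 FPKM under the siRNA label and 6.35, 6.45 and 7.20 FPKM in NC. With MK1775 the libraries overlapped NC (0.10, 95% interval -0.11 to 0.30, limma adjusted p = 0.417). Under the siRNA label they lay just above it, without a call (0.20, 95% interval -0.0025 to 0.41, adjusted p = 0.103).

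Spr, sepiapterin reductase, completes the cofactor (chr6:85107158-85114748, minus strand) and was the most abundant of the 9 in every group. It had 26.4, 26.1 and 31.4 FPKM with MK1775, 27.0, 27.8 and 25.4 FPKM under the siRNA label, and 36.4, 42.9 and 40.2 FPKM in NC. No treated library reached the lowest control. Spr fell to 70.2% of the NC mean with MK1775 (-0.50, SE 0.087, limma adjusted p = 0.00248) and to 67.2% under the siRNA label (-0.55, SE 0.087, adjusted p = 0.00138). Qdpr, dihydropteridine reductase, regenerates BH4 after use (chr5:45591363-45607578, minus strand). It had 22.9, 22.7 and 25.4 FPKM with MK1775, 23.8, 22.3 and 21.1 FPKM under the siRNA label, and 28.04, 32.1 and 28.7 FPKM in NC, again without overlap. It fell to 79.9% of the NC mean with MK1775 (-0.31, SE 0.073, limma adjusted p = 0.0101) and to 75.6% under the siRNA label (-0.39, SE 0.073, adjusted p = 0.00346). The calls for Gch1, Spr and Qdpr held in both comparisons under every alternative that tested them.

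The bases before the start of these 3 genes are shown because the gene that opens BH4 synthesis moved opposite to those that complete and recycle it. They are the 250 bases upstream of the start in RefSeq (GRCm38.p6, another build than the table's), written 5′ to 3′ along the gene: Gch1 from chr14:47189414-47189663, Qdpr from chr5:45450230-45450479 and Spr from chr6:85137765-85138014, all on the minus strand. Capitals mark matches to the motifs searched.
Gch1: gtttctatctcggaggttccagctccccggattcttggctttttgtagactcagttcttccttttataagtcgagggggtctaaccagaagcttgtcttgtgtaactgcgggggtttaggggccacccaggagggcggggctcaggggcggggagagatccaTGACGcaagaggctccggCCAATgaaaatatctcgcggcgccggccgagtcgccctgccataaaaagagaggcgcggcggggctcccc
Qdpr: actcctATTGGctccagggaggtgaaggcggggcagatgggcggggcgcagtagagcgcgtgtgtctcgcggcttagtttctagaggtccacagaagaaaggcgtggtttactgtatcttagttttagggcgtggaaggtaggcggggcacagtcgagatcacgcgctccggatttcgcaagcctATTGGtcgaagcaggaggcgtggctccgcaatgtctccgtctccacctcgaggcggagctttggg
Spr: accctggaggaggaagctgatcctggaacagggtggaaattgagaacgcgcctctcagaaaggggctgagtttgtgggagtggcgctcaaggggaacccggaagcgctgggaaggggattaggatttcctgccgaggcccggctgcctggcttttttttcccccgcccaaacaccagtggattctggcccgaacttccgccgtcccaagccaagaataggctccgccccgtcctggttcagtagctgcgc
Windows of 300 bases, 250 before and 50 after the start, were at hand for 8 of the 9 genes and were searched on both strands for 8 motifs. These were the cAMP response element TGACGTCA, its shorter form TGACG (which every TGACGTCA also holds), the CCAAT box CCAAT, the AP-1 site TGANTCA, the antioxidant response element TGACNNNGC, the C/EBP-ATF element TGATGCAA, the E2F site TTTCGCGC and the E-box CACGTG. Gch1 held TGACG from 88 to 84 bases and CCAAT from 70 to 66 bases before its start. Qdpr held CCAAT on the opposite strand, read as ATTGG, from 244 to 240 and from 65 to 61 bases before its start, and the Spr window matched none of the 8. Of all 32851 windows in the table, 20.8% held TGACG and 37.4% held CCAAT, so these matches are frequent and describe the letters only. Elsewhere among the 9, Coq2 held TGACG and Vkorc1l1 held CCAAT, each a single time. Nfs1 held TGACNNNGC at 2 places on the opposite strand, as 12.4% of windows do at least at 1. Pts and Aifm2 matched none of the motifs. Named Aifm2 transcripts start at several positions, and to which of them its window belongs was not tested. TGACGTCA, TGANTCA, TGATGCAA, TTTCGCGC and CACGTG, found in 1.79%, 7.81%, 0.895%, 0.323% and 7.15% of all windows, were in none of the 8.

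Of 10 listed genes of BH4 synthesis and recycling 9 were tested, with a median log2 difference of -0.20 with MK1775 and -0.09 under the siRNA label. Gch1 was the only called rise among them in either comparison. With MK1775, 5 fell: Pcbd2, Spr, Qdpr, Gchfr and Akr1b3. Pcbd2, a pterin carbinolamine dehydratase that takes part in recycling, was at 4.01 ± 0.608 FPKM with MK1775, 5.39 ± 0.580 FPKM under the siRNA label and 7.83 ± 0.739 FPKM in NC (SD, n = 3 each; log2 differences -0.82 and -0.47, limma adjusted p = 0.000759 and 0.0114). Gchfr, whose product binds GTP cyclohydrolase 1 and restrains it, fell with MK1775 (-0.28, limma adjusted p = 0.0394, 25.7 ± 1.04 FPKM against 31.5 ± 2.25 FPKM in NC). Under the siRNA label Gchfr was at 26.5 ± 3.39 FPKM, a difference of similar size without a call (-0.25, limma adjusted p = 0.0629). The 3 falls under the siRNA label were Spr, Pcbd2 and Qdpr. Pcbd1, the other dehydratase, was listed at 0 in all 9 libraries. The enzymes that use BH4 as cofactor were almost silent: none of the 8 listed reached the tested range. Nos3, endothelial nitric oxide synthase, averaged 0.111 FPKM with MK1775, 0.129 FPKM under the siRNA label and 0.0647 FPKM in NC.

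**Figure D2:**
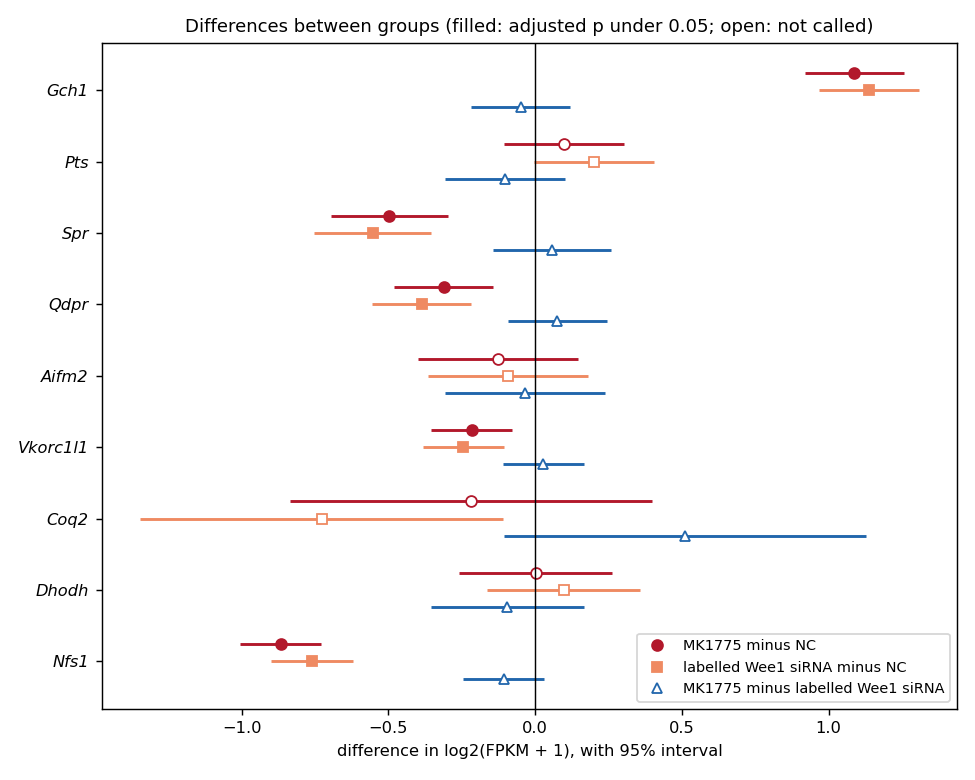
Differences in log2(FPKM + 1) for the 9 genes with 95% intervals, for MK1775 minus NC, labelled Wee1 siRNA minus NC, and MK1775 minus labelled Wee1 siRNA. Filled symbols have a limma adjusted p under 0.05: Gch1 lies near 1.09 and 1.14, Nfs1 near -0.87 and -0.76, and no symbol of the direct comparison is filled.

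Aifm2, known as FSP1, is the NAD(P)H-dependent quinone reductase of the plasma membrane (chr10:61551042-61575039, plus strand). It had 6.03, 4.57 and 5.88 FPKM with MK1775, 5.41, 5.20 and 6.28 FPKM under the siRNA label, and 5.87, 5.51 and 6.83 FPKM in NC. The 3 groups overlapped and no change was detectable (-0.13, 95% interval -0.40 to 0.15, limma adjusted p = 0.441 with MK1775; -0.09, -0.36 to 0.18, adjusted p = 0.573 under the siRNA label).

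Below the gene level the Aifm2 transcripts went different ways. The 9-exon coding transcript ENSMUST00000099706, which made up 56.0% of the gene's FPKM, had 3.32, 1.93 and 2.71 FPKM with MK1775, 2.94, 3.00 and 2.57 FPKM under the siRNA label, and 4.30, 3.61 and 4.50 FPKM in NC. All treated libraries were below all controls. The 10-exon transcript ENSMUST00000067857 had 1.90, 1.96 and 2.29 FPKM with MK1775, against 0.728, 0.742 and 1.53 FPKM in NC, and the MK1775 libraries lay above the controls. Under the siRNA label it had 0.744, 1.18 and 1.03 FPKM, within the range of NC. When each gene was represented by its most abundant transcript alone, Aifm2 was called lower with MK1775 (-0.51, limma adjusted p = 0.0354) and not under the siRNA label (-0.42, adjusted p = 0.0655). How FPKM were split among overlapping transcripts was not tested.

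**Figure D3:**
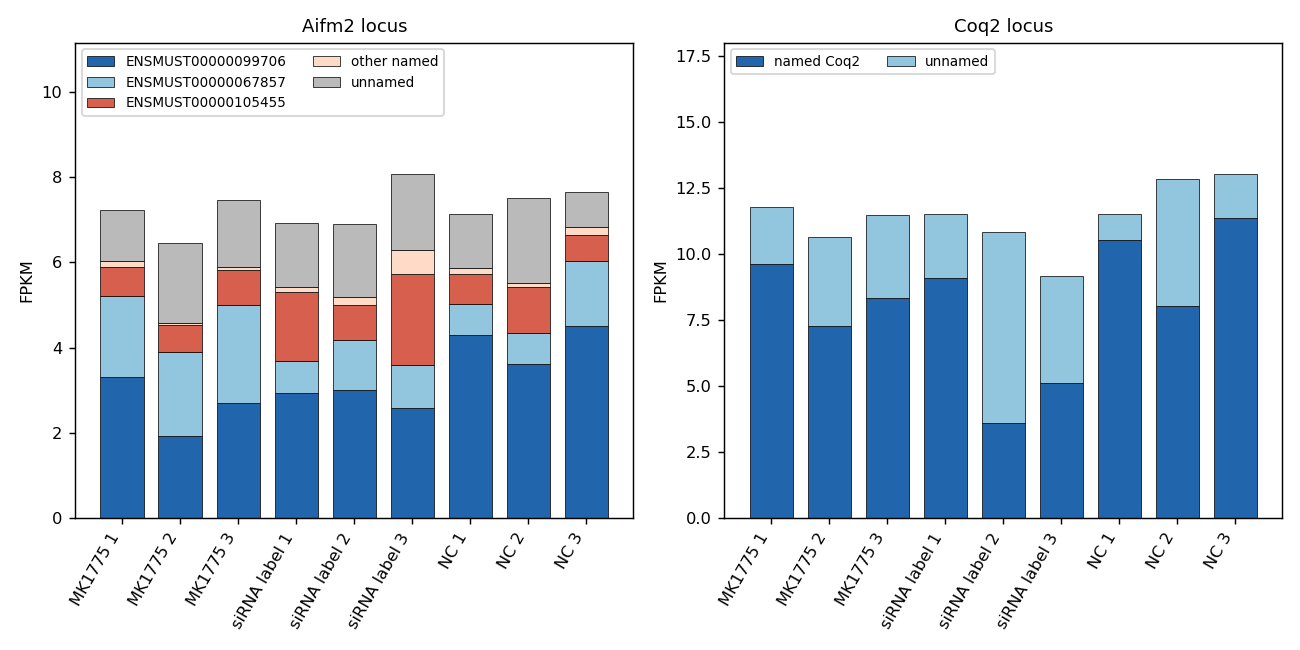
FPKM by transcript at the Aifm2 locus (left) and the Coq2 locus (right) in each library, stacked, with MK1775 libraries on the left, those labelled Wee1 siRNA in the middle and NC on the right. ENSMUST00000099706 of Aifm2 is at 3.32 FPKM or less in treated libraries and at 3.61 FPKM or more in NC, and named Coq2 is smallest where unnamed transcripts are largest, at 3.61 and 7.21 FPKM in replicate 2 of the siRNA label.

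Vkorc1l1 encodes a vitamin K epoxide reductase of the endoplasmic reticulum that yields reduced vitamin K (chr5:129970811-130015533, plus strand). It had 8.86, 8.75 and 9.22 FPKM with MK1775, 8.62, 8.43 and 9.21 FPKM under the siRNA label, and 10.0, 10.5 and 11.1 FPKM in NC, with no overlap. The falls were small: to 84.7% of the NC mean with MK1775 (-0.22, SE 0.060, limma adjusted p = 0.0208) and to 82.9% under the siRNA label (-0.24, SE 0.060, adjusted p = 0.0117). With MK1775 the call was lost without MK1775 replicate 1 (-0.21, adjusted p = 0.0627), without MK1775 replicate 2 (-0.20, adjusted p = 0.0682) and without NC replicate 3 (-0.18, adjusted p = 0.0784), and under quantile normalization (-0.15, adjusted p = 0.0806). Counting only its main transcript ended both calls (adjusted p = 0.120 and 0.151). Its paralogue Vkorc1, the reductase of the blood clotting vitamin K cycle, was at 11.5 ± 1.23 FPKM with MK1775, 11.2 ± 1.54 FPKM under the siRNA label and 12.6 ± 1.39 FPKM in NC (SD, n = 3 each), without a call (adjusted p = 0.448 and 0.330).

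The list of quinone reduction at membranes held 11 genes, all tested: 0 rose and 5 fell with MK1775, 1 rose and 4 fell under the siRNA label, with medians of -0.21 and -0.23. Among the 5 falls with MK1775 were Nmt2, Parl, Vkorc1l1 and Stard7, of which Nmt2 was not called by its most abundant transcript (-0.035, limma adjusted p = 0.853). Stard7, a lipid carrier that brings coenzyme Q to the plasma membrane, fell to 25.1 ± 0.0495 FPKM with MK1775 and 24.4 ± 0.422 FPKM under the siRNA label, against 29.3 ± 0.620 FPKM in NC (SD, n = 3 each; -0.21 and -0.25, limma adjusted p = 0.00283 and 0.00115). Nmt2, a myristoyl transferase, and Parl, a mitochondrial protease that acts on Stard7, made up the 4 falls under the siRNA label with Stard7 and Vkorc1l1. The call for Parl was lost in 1 of 21 alternatives with MK1775 and in 4 of 21 under the siRNA label. Nqo1, a cytosolic quinone reductase, was at 14.4 ± 0.373 FPKM under the siRNA label and 9.84 ± 1.05 FPKM in NC and rose there (0.51, adjusted p = 0.00105). With MK1775 Nqo1 was at 11.1 ± 0.477 FPKM and was not called.

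Coq2 attaches the isoprenoid tail to the ring that becomes coenzyme Q (chr5:100802589-100823006, minus strand). It had 9.62, 7.27 and 8.33 FPKM with MK1775, 9.08, 3.61 and 5.11 FPKM under the siRNA label, and 10.5, 8.05 and 11.4 FPKM in NC. The SE of its differences, 0.27, was the largest of the 9. Replicates 2 and 3 of the siRNA label were below every other library, and replicate 1 lay among the controls. Neither difference was called (-0.22, 95% interval -0.83 to 0.40, limma adjusted p = 0.562 with MK1775; -0.73, -1.34 to -0.11, adjusted p = 0.0592 under the siRNA label). Without replicate 1 of the siRNA label the second was called (-1.04, adjusted p = 0.0045).

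Unnamed assembled transcripts share the strand and locus of Coq2, and they varied as well, with 2.17, 3.38 and 3.15 FPKM with MK1775, 2.43, 7.21 and 4.07 FPKM under the siRNA label, and 1.01, 4.80 and 1.69 FPKM in NC. Named and unnamed transcripts together came to 11.3 ± 0.588 FPKM with MK1775, 10.5 ± 1.20 FPKM under the siRNA label and 12.5 ± 0.827 FPKM in NC (SD, n = 3 each). On that total the siRNA-labelled libraries lay below NC without overlap and were called lower, by a smaller difference (-0.23, limma adjusted p = 0.0423).

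Of 13 listed genes of coenzyme Q synthesis 12 were tested, with medians of -0.19 and -0.25. With MK1775 Coq10b rose and Coq7, Coq3 and Coq5 fell. Under the siRNA label Coq10b and Coq8b rose and Coq7, Coq3, Coq5 and Pdss2 fell. Coq10b, a coenzyme Q binding protein of mitochondria, was at 26.0, 27.5 and 25.8 FPKM with MK1775, 24.4, 25.0 and 28.4 FPKM under the siRNA label and 10.9, 9.58 and 11.1 FPKM in NC (1.25 and 1.22, SE 0.076, limma adjusted p = 1.32e-05 and 1.46e-05). Coq7, the hydroxylase of a late step, moved the other way, with 8.57, 7.68 and 7.57 FPKM with MK1775, 7.96, 7.99 and 8.93 FPKM under the siRNA label and 15.6, 14.8 and 16.8 FPKM in NC (-0.90 and -0.85, SE 0.074, adjusted p = 5.92e-05 and 7.81e-05). For both genes the treated libraries and NC stood wide apart, and both calls held in all 21 alternatives. The others were less firm: the call for Coq3, a methyltransferase, was lost in 12 of 20 alternatives with MK1775 and in 9 of 20 under the siRNA label. The call for Coq5, a further methyltransferase, was lost in 5 of 21 with MK1775, and that for Coq8b, a kinase-like protein, in 12 of 20 under the siRNA label.

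Dhodh, dihydroorotate dehydrogenase, feeds electrons from pyrimidine synthesis to coenzyme Q (chr8:110317975-110335305, minus strand). It had 5.39, 7.03 and 7.18 FPKM with MK1775, 6.997, 6.91 and 7.11 FPKM under the siRNA label, and 5.69, 7.22 and 6.61 FPKM in NC. All 3 groups overlapped, and no difference was detectable (0.00, 95% interval -0.26 to 0.26, limma adjusted p = 0.989 with MK1775; 0.10, -0.16 to 0.36, adjusted p = 0.526 under the siRNA label). A pair of unnamed transcripts on the same strand and locus summed to 1.07, 0 and 0.279 FPKM with MK1775, 0.104, 0.374 and 0.236 FPKM under the siRNA label, and 1.31, 1.94 and 1.12 FPKM in NC, below NC in every treated library. Adding them turned both signs (-0.16 and -0.11) without a call (adjusted p = 0.156 and 0.299).

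Dhodh is also an enzyme of pyrimidine synthesis. Of 6 listed genes of that pathway and of pyrimidine salvage, all tested, 5 fell with MK1775 and 4 under the siRNA label. None rose in either, and the medians were -0.53 and -0.41. Among all genes tested, 23.1% fell with MK1775 and 23.2% under the siRNA label. Cad, which opens the pathway, was at 25.4 ± 1.64 FPKM with MK1775, 25.3 ± 1.77 FPKM under the siRNA label and 39.1 ± 4.03 FPKM in NC (SD, n = 3 each; -0.60 in both, limma adjusted p = 0.000917 and 0.000832). Ctps, the CTP synthase, was at 39.9 ± 1.5 FPKM with MK1775, 37.3 ± 1.52 FPKM under the siRNA label and 60.1 ± 1.04 FPKM in NC (-0.58 and -0.68, adjusted p = 4.99e-05 and 2.14e-05). Uck2, a uridine kinase of the salvage route, and Umps, which follows Dhodh, fell in both comparisons. Ctps2, the second CTP synthase, fell with MK1775 (-0.51, adjusted p = 0.0299), but was not called once the unnamed transcripts of its locus were added (-0.15, adjusted p = 0.179). Ctps2 was at 3.77 FPKM under the siRNA label, against 3.80 FPKM in NC, and was not called (-0.01, adjusted p = 0.965). Of 10 mitochondrial dehydrogenase genes that pass electrons to ubiquinone, Dhodh among them, 8 were tested. With MK1775 1 rose (Gpd2) and 3 fell (Prodh, Sdha and Sdhd), and under the siRNA label 0 rose and 3 fell (Prodh, Sdha and Sdhd), with medians of 0.00 and 0.02. The calls for Gpd2 and Sdhd with MK1775 were lost in 7 and 15 of 21 alternatives, and that for Sdhd under the siRNA label in 5 of 21. Prodh, proline dehydrogenase, had differences of -0.35 and -0.33 (adjusted p = 0.000871 and 0.00117).

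Nfs1, the cysteine desulfurase that supplies sulfur for iron-sulfur clusters, fell most among the 9 with MK1775 (chr2:155965559-155986106, minus strand). It had 8.82, 8.92 and 9.52 FPKM with MK1775, 9.76, 10.1 and 9.73 FPKM under the siRNA label, and 16.2, 17.6 and 18.4 FPKM in NC. Every treated library was far below every control. It fell to 52.2% of the NC mean with MK1775 (-0.87, SE 0.060, limma adjusted p = 2.37e-05) and to 56.6% under the siRNA label (-0.76, SE 0.060, adjusted p = 4.71e-05). A call for a fall of at least 0.5 on the log2 scale was made for 9.74% of all genes with MK1775 and 9.70% under the siRNA label. Among the 9 it was made for Nfs1 in both comparisons and for Spr under the siRNA label. The 13-exon transcript ENSMUST00000029147, with 93.6% of the gene's FPKM, and the 3-exon ENSMUST00000109600, with 6.14%, were each lower in all treated libraries than in all controls.

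The assembly put Nfs1 under the same locus number as Cpne1, Rbm12 and Gm28036 and 2 unnamed transcripts, 37 transcripts in all. The unnamed transcripts reach position 155953898 and do not touch the Nfs1 span. Of the transcripts under that number with other names only 3 of Gm28036 reach into Nfs1, by 3454 bases, none above 0.0224 FPKM in any library. On the opposite strand, a transcript of the neighbour Romo1 covers 148 bases at the 5′ end of Nfs1 and averaged 39.5 FPKM with MK1775, 43.7 FPKM under the siRNA label and 46.4 FPKM in NC. Strand-aware counting is not stated in the sources used here, and what reads of Romo1 add to Nfs1 was not tested. Romo1 as a gene fell by 0.19 with MK1775 (limma adjusted p = 0.0281) and was not called under the siRNA label (-0.08, adjusted p = 0.319).

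Over the whole locus number the total was 46.7 ± 1.22 FPKM with MK1775, 44.2 ± 2.61 FPKM under the siRNA label and 57.8 ± 1.55 FPKM in NC (SD, n = 3 each). That sum was called lower in both comparisons (-0.30 and -0.38), and it holds the other genes as well, so it is no call for Nfs1. Rbm12 fell (-0.51 and -0.58), to 5.38 ± 0.554 FPKM with MK1775 and 5.06 ± 0.625 FPKM under the siRNA label, against 8.04 ± 0.199 FPKM in NC. Cpne1 was at 22.4 ± 1.72 FPKM with MK1775, 13.6 ± 1.62 FPKM under the siRNA label and 18.1 ± 3.69 FPKM in NC, and was called in neither comparison. Its most abundant transcript, ENSMUST00000109607, lay above NC with MK1775 and below it under the siRNA label, each without overlap. That transcript averaged 17.6 ± 0.611 FPKM with MK1775, 6.26 ± 1.83 FPKM under the siRNA label and 12.2 ± 1.37 FPKM in NC.

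**Figure D4:**
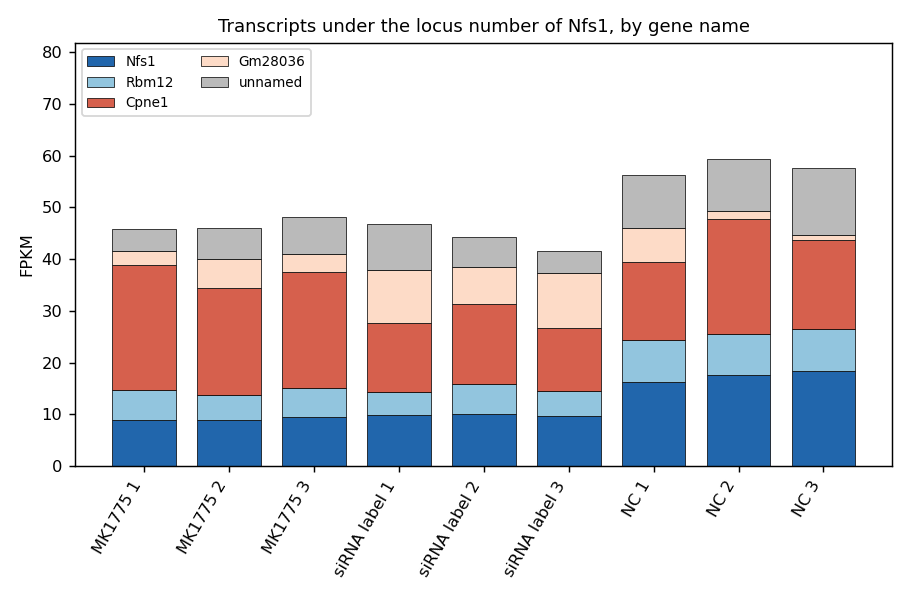
FPKM of the transcripts that share a locus number with Nfs1, stacked by gene name for each library, with MK1775 libraries on the left, those labelled Wee1 siRNA in the middle and NC on the right. The Nfs1 segment at the base is at most 10.1 FPKM in the 6 treated libraries and at least 16.2 FPKM in NC, and the whole stack is at most 48.1 FPKM in treated libraries and at least 56.2 FPKM in NC.

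The list of iron-sulfur cluster assembly held 23 genes, Nfs1 among them, all tested. With MK1775 3 rose, 8 fell and 12 were not called, and under the siRNA label 2 rose, 10 fell and 11 were not called, with medians of -0.15 and -0.12. Nubp1, a cytosolic scaffold for clusters, fell to 9.11 ± 0.564 FPKM with MK1775 and 9.05 ± 0.668 FPKM under the siRNA label, against 18.2 ± 2.08 FPKM in NC (SD, n = 3 each; -0.92 and -0.93, limma adjusted p = 0.000155 and 0.000146). Fdx2, the ferredoxin that gives electrons to the assembly, fell to 3.92 ± 1.23 FPKM with MK1775 and 1.29 ± 0.416 FPKM under the siRNA label, against 8.38 ± 1.00 FPKM in NC (-0.96 and -2.04). The whole locus number of Fdx2 holds other named genes as well. Its sum fell less, by -0.59 and -0.81, and was called, which is no call for Fdx2. Nfu1, a carrier of clusters, fell under the siRNA label (-0.996, adjusted p = 0.0119), by -0.37 with the unnamed transcripts of its locus added. The rises in both comparisons were Hspa9, the chaperone of cluster transfer, and Nubp2, the partner of Nubp1. With MK1775 Lyrm4, which stabilises Nfs1, was called higher as well (0.34, limma adjusted p = 0.0229, 4.06 FPKM against 2.99 FPKM in NC). Under the siRNA label Lyrm4 averaged 3.68 FPKM, with every library above every control, and was not called.

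**Figure D5:**
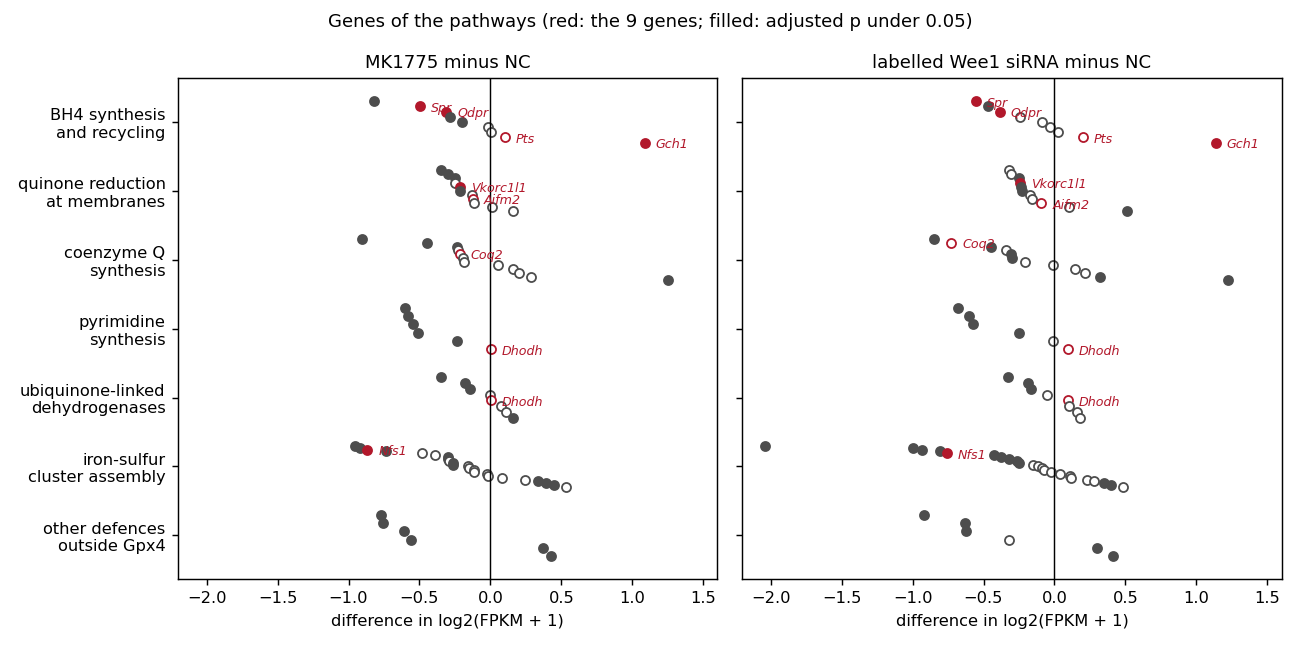
Differences in log2(FPKM + 1) of the tested genes in 7 pathway lists, MK1775 minus NC on the left and labelled Wee1 siRNA minus NC on the right, with the 9 genes in red and filled points for a limma adjusted p under 0.05. Gch1 and, in the list of coenzyme Q synthesis, Coq10b are the points above 1 in both panels, and Fdx2 at -2.04 is the lowest point on the right.

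A further list, labelled other defences outside Gpx4, held 7 genes that are not among the 9. Whether each of them acts apart from Gpx4 was not tested. Of 6 tested, 2 rose and 4 fell with MK1775 and 2 rose and 3 fell under the siRNA label, with medians of -0.58 and -0.47. Tfap2c, a transcription factor, fell to 1.06 ± 0.241 FPKM with MK1775 and 0.851 ± 0.121 FPKM under the siRNA label, against 2.50 ± 0.211 FPKM in NC (SD, n = 3 each; -0.77 and -0.92, limma adjusted p = 0.000871 and 0.000349). Mboat1, which remodels phospholipids, fell to 1.67 ± 0.0584 FPKM with MK1775 and 1.92 ± 0.229 FPKM under the siRNA label, against 3.52 ± 0.308 FPKM in NC (-0.76 and -0.63, adjusted p = 0.000308 and 0.000732). Prdx6, a peroxiredoxin that acts on phospholipid peroxides, fell by 0.56 and 0.62. Chmp6, a membrane repair protein of the ESCRT-III complex, fell with MK1775 (-0.61, adjusted p = 0.0118), though not by its most abundant transcript (-0.52, adjusted p = 0.134), and was not called under the siRNA label. Chmp5 of the same complex rose in both (0.42 and 0.41), as did the phospholipase Pla2g6 (0.37 and 0.30). Over all 78 listed genes other than the 9 and the markers, 65 were tested: 7 rose and 29 fell with MK1775, and 7 rose and 27 fell under the siRNA label. Of all genes tested, 17.9% rose and 23.1% fell with MK1775, and 19.6% rose and 23.2% fell under the siRNA label.

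MK1775 and the libraries labelled Wee1 siRNA were also compared directly. None of the 9 was called by limma, 0 had an unadjusted p under 0.05, and the lowest unadjusted p among them was 0.093, for Coq2 (0.51, 95% interval -0.11 to 1.13). Over all genes tested 1 was called (0.00957%), and 616 had an unadjusted p under 0.05. Nfs1 was the only one of the 9 whose libraries did not overlap between these groups, lower with MK1775 (-0.11, 95% interval -0.25 to 0.03, adjusted p = 0.867), where 11.9% of all genes did not overlap. For Gch1 the difference was -0.05 (95% interval -0.22 to 0.12), for Spr 0.06 (-0.14 to 0.26) and for Qdpr 0.08 (-0.09 to 0.24), and such intervals bound a difference without showing that the treatments act alike.

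The order of the 9 by level, per length, was Spr, Qdpr, Nfs1, Vkorc1l1, Coq2, Pts, Dhodh, Aifm2 and Gch1 with MK1775 and in NC alike. Under the siRNA label Coq2 stood after Dhodh. Neighbours in the order that overlapped with MK1775 ran from Nfs1 through Aifm2. Under the siRNA label Coq2 overlapped its neighbours Dhodh and Aifm2, which lay apart from each other. In NC Vkorc1l1 overlapped Coq2, while Dhodh overlapped Pts and Aifm2. In NC the 9 reached from the 7.62th percentile of tested genes, for Gch1, to the 88.3th, for Spr, with Nfs1 at the 72.9th.

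Genes with provisional names, such as Gm numbers and Rik names, were left out of a search for similar profiles. For the 5 called genes, the remaining tested genes with the most similar profile over the 9 libraries were named by the root mean square difference of centred log2(FPKM + 1) values. These were Fbxo8, Faap24 and Mxd1 for Gch1 (0.0708, 0.0710 and 0.0716), and Galk1, Arf5 and Erbb2 for Spr (0.0219, 0.0364 and 0.0454). For Qdpr they were Gsr, Ppp5c and Eif3b (0.0251, 0.0255 and 0.0365), and for Vkorc1l1 Dnlz, Ifi30 and Pdia6 (0.0157, 0.0345 and 0.0347). Nfs1 was nearest to Dpp3, Nsfl1c and Chst2 (0.0400, 0.0414 and 0.0422). As a scale, the SD of the member's own profile was 0.559 for Gch1, 0.281 for Spr, 0.194 for Qdpr, 0.126 for Vkorc1l1 and 0.413 for Nfs1.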

How the data were processed

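RNA from 9 libraries of 4T1 cells was profiled at day 2 (3 of MK1775, 3 labelled Wee1 siRNA, 3 of NC). The authors deposited FPKM per transcript for 158719 transcripts, of which 17991 are assembled without a gene name. FastQC, Trim Galore, HISAT2 and StringTie and the build GRCm39 are named in the submitters' processing notes, without versions. Per the labels' protocols, libraries were made with an NEBNext Ultra kit. Strand-aware counting is not given in the sources used here. Whole reads were looked for in the steps between low values: 18.6% to 22.3% of values per library came within 0.1 of a whole multiple. Evenly spread values would give about as much, and steps would not show where reads are split between transcripts. No counts were recovered, and depth is unknown. Columns were assigned by the column name in each sample's description, with 0 left unmapped.

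FPKM were summed per gene name, leaving out 19 names found on several chromosomes. The 10453 genes averaging 1 FPKM or more entered 1 limma fit (limma 3.58.1, R 4.3.3, lmFit, contrasts.fit, eBayes with trend) on log2(FPKM + 1) with 3 group means and no covariate, two-sided, adjusted by Benjamini-Hochberg over all of them. The procedure was tested on simulated data. Values are mean ± SD over 3 libraries. Promoter windows came from RefSeq (GRCm38.p6).

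The 9 genes, the gene lists (written from textbook knowledge) and the tests were chosen with earlier results of these data known. Named beside the 9 were Wee1, Gpx4, Vkorc1, at most 4 called genes of each list and comparison by the size of the log2 difference, and the 3 genes with the most similar profile among those without a provisional name. Gchfr, Akr1b3, Pcbd1, Nos3, Coq5 and Pdss2 under the siRNA label, Stard7 and Umps with MK1775, Nqo1 with MK1775, Nmt2 under the siRNA label, Hspa9, Nubp2, Lyrm4, Pla2g6, the genes at the Nfs1 locus, Romo1 and the epithelial markers fall outside that rule, chosen once their values had been seen. Some genes that the rule names are not reported here. Alternatives were pseudocounts of 0.1 and 0.01, no filter, a minimum mean of 5 FPKM, 2 other scalings, a block for the replicate number, fits of the 2 groups alone, eBayes without trend, 3 other ways of assigning transcripts to genes, and leaving out each library.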

Additional observations from a re-analysis of the deposited data

Results flagged for a closer look

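Transcripts of Gm28036, which share the locus number of Nfs1 and are counted with it only in the sum over that locus, averaged 9.31 FPKM in the libraries labelled Wee1 siRNA (10.3, 7.10 and 10.6 FPKM), above the level in NC (6.61, 1.62 and 1.05 FPKM). With MK1775 they were at 2.82, 5.68 and 3.55 FPKM, within the NC range. The libraries labelled Wee1 siRNA were called higher than NC (log2 difference 1.56, SE 0.463, limma adjusted p = 0.0262), and MK1775 was not called (0.50, adjusted p = 0.432). Each Gm28036 transcript taken alone overlapped NC under the siRNA label. ENSMUST00000132494 had 8.997, 0.007173 and 0.01462 FPKM under that label, and 5.931, 0 and 0 FPKM in NC. ENSMUST00000127956 had 1.147, 7.052 and 10.34 FPKM under it, and 0.6746, 1.503 and 0.9916 FPKM in NC. The summed level thus came mostly from the first transcript in replicate 1 and from the second in replicates 2 and 3. How FPKM were split among these transcripts, and between Gm28036, Cpne1 and Rbm12, whose transcripts overlap, was not tested.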

How the results depend on the processing

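Over 21 alternatives 1639 differences of the named genes were compared, 17 changed sign, and 0 of these was a called difference. Calls for Gch1 (not tested at a minimum mean of 5 FPKM), Spr, Qdpr and Nfs1 against NC held in all, where the whole-locus setting for Nfs1 sums 4 named genes. Dhodh reached -0.161 with MK1775 and -0.114 under the siRNA label when unnamed transcripts or the whole locus were counted. Leaving out each library in turn moved Dhodh between -0.078 and 0.117 and Gpx4 between -0.027 and 0.065 with MK1775. In the direct comparison it moved Aifm2 between -0.096 and 0.073, Spr between -0.025 and 0.103 and Dhodh between -0.159 and 0.019. There, Aifm2 was at 0.002 with median-of-ratios size factors and 0.023 with quantile normalization, Vkorc1l1 at -0.015 by its most abundant transcript and Nfs1 at 0.078 over its whole locus. The causes were not tested. Leaving out each library in turn gave 4 to 5 of the 9 called with MK1775, 5 to 6 under the siRNA label and 0 directly. Over all genes it gave 3570 to 4348, 3733 to 4333 and 0 to 3 calls, beside 4282, 4474 and 1 in the full fit. The direct comparison called 11 genes without a filter, 2 by the most abundant transcript and 0 over whole loci. Without a filter, calls with MK1775 split into 2907 higher and 2168 lower (1871 and 2411 with it), and under the siRNA label into 3558 and 2249 (2048 and 2426 with it).

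No sign of pairing by replicate number was seen: correlations of deviations between same-numbered libraries ran from -0.12 to 0.043. With 3 libraries a group, such values cannot show that the libraries were unpaired. With the replicate number as a block, 3881 genes with MK1775, 4079 under the siRNA label and 0 directly were called. Of the 9 genes 5, 6 and 0 were called, the sixth being Coq2 (-0.73, limma adjusted p = 0.0227). Depth, which FPKM do not carry, limits what can be said of genes at the level of Gch1 and below.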
